A study of Rattus norvegicus with 11 samples.

Results

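The CC chemokines are small secreted proteins that draw leukocytes into tissue, and 10 of their genes were followed in the ileum of rats with severe acute pancreatitis (SAP). The members were taken by gene symbol, Ccl2, Ccl3, Ccl4, Ccl5, Ccl7, Ccl11, Ccl20, Ccl21, Ccl25 and Ccl28, and all 10 were found among the 24481 genes with read counts. Ccl2, Ccl3, Ccl4, Ccl5, Ccl7 and Ccl11 lie on rat chromosome 10 of the mRatBN7.2 genome, Ccl20 on chromosome 9, Ccl21 on chromosome 5, Ccl25 on chromosome 12 and Ccl28 on chromosome 2. The 10 genes were taken by name, but they were chosen with earlier results of these data known, so counts of them are given beside the share of all genes.

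The mRNA of the ileum was sequenced in 11 libraries from Sprague-Dawley rats, which the labels give as 6 to 8 weeks old. The 3 control rats carried no pancreatitis and were labelled as treated with a control plasmid, whereas the methods describe vehicle, and a sham operation is not given for them in the sources used here. The 4 SAP rats had 3% sodium taurocholate infused into the pancreatic duct and then vehicle, and the 4 JZL184 rats had the same infusion and then JZL184 at 10 mg/kg into the peritoneum. JZL184 blocks monoacylglycerol lipase (MAGL), the enzyme that breaks down the endocannabinoid 2-AG. The injection was given 24 h after surgery and the rats were killed 24 h later. No group of JZL184 in rats without pancreatitis was among the samples, so the comparisons below are of SAP against control, of JZL184 against SAP, and of JZL184 against control. The last of these holds the effect of pancreatitis and of JZL184 at once, and they cannot be told apart in it.

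A CC chemokine acts through receptors of the CCR family on leukocytes, and atypical receptors such as Ackr2 take chemokines up without signalling. Inflammatory members (Ccl2, Ccl3, Ccl4, Ccl5, Ccl7 and Ccl11) are induced in macrophages, stroma and lymphocytes by cytokines and microbial products, in part through the transcription factor NF-kB. Homeostatic members are made without inflammation: Ccl25 by small-intestinal epithelium, where it holds Ccr9+ lymphocytes, Ccl28 by mucosal epithelium for Ccr10+ plasma cells, Ccl21 by lymphatic endothelium and lymphoid stroma for Ccr7+ cells. Ccl20, the ligand of Ccr6, stands between both kinds, since the epithelium over lymphoid follicles makes it at rest and other epithelium makes it under inflammation.

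Between 26341299 and 33847135 reads per library were counted on genes. The reads of control libraries 1 and 2 were nearly alike (chi-square of 2.81 per gene, against 77.48 to 563.03 in the other pairs of libraries within a group), so they were counted as 1 sample and the control group held n = 2. The label calls the material intestinal epithelial cells, but it was whole tissue: Epcam, of epithelium, lay at 2220 to 3814 FPKM (fragments per kilobase of transcript, scaled to the reads of the library), and Des, Cd3g and Lyz2, of muscle, T cells and myeloid or Paneth cells, were read in every library too. In such bulk RNA, fewer cells of a type and less RNA per cell cannot be told apart. Several libraries stood apart. In JZL184 library 3, the colonic gene Car1 lay at 477.54 FPKM, against 24.50 in JZL184 library 2 and at most 0.79 in the other 9, while Fabp6, of ileal enterocytes, lay at 79.92 FPKM against 409.74 to 21818.98 in the others. SAP library 2 held 20 reads on Y-linked genes, against 1222 to 4665 in the other libraries, although the methods describe male rats. SAP libraries 1 and 2 differed from SAP libraries 3 and 4 across many genes.

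The letters upstream of 3 members are shown first, because Ccl7 and Ccl20 are inflammatory genes whose proximal promoters hold a motif of NF-kB, and Ccl25 is the most abundant member. RefSeq promoter sequences of the GRCr8 build, a newer one than that of the read counts, matched 5 of the 10 members by symbol, namely Ccl7, Ccl20, Ccl21, Ccl25 and Ccl28. The 250 bases before the annotated start were searched on both strands for the NF-kB consensus, AP-1 (TGANTCA), a CDX motif (TTTATG) and a TATA box (TATAAA), and capitals mark every match. Each runs 5′ to 3′ on the strand of the gene, which is the plus strand for all 3.
Ccl7, chr10:67513845-67514094: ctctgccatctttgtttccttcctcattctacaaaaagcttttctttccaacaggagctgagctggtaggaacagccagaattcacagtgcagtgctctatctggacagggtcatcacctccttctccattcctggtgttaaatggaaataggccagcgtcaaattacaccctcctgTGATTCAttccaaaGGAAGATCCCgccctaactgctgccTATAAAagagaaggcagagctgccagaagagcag
Ccl20, chr9:91836909-91837158: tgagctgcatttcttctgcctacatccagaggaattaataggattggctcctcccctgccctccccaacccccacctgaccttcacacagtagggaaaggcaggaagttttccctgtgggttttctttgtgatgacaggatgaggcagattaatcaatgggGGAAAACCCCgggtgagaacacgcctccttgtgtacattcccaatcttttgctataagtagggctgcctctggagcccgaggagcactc
Ccl25, chr12:7504985-7505234: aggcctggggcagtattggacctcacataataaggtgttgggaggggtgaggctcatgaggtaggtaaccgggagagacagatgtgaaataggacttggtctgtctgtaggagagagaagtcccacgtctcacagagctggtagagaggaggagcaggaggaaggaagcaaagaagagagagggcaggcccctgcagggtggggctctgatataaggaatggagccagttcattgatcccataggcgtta

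In Ccl7, the NF-kB consensus was read on the opposite strand 59 to 50 bases before the start, with an AP-1 motif at 73 to 67 and a TATA box at 34 to 29. In Ccl20, an NF-kB consensus on the opposite strand lay 89 to 80 bases before the start and no other motif matched. Ccl25 and Ccl28 matched none of the 4 motifs in this window, and Ccl21 matched the CDX motif on the opposite strand at 54 to 49. Of all 33469 rat promoters searched over the same length, 6.33% held the NF-kB consensus, 6.34% AP-1, 11.4% the CDX motif and 12.9% the TATA box. The matches describe letters, and no binding was measured.

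Ccl25 and Ccl21 together made up most of the CC chemokine transcripts, and Ccl2, Ccl3 and Ccl7 held a larger share of them in every SAP and JZL184 library than in any control library. Ccl25 held 69.0% to 71.3% of the summed FPKM of the 10 genes in the control libraries, 52.7% to 68.9% in SAP and 1.04% to 52.4% in JZL184, the lowest being JZL184 library 3. Ccl2 held 0.341% to 0.594% in control, 1.69% to 5.54% in SAP and 5.96% to 16.5% in JZL184. These shares of 1 library do not depend on how libraries were scaled to each other, and the ranges of Ccl2 in the 3 groups did not overlap. They are bound to each other, since the shares of a library add up to the whole.

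**Figure D1:**
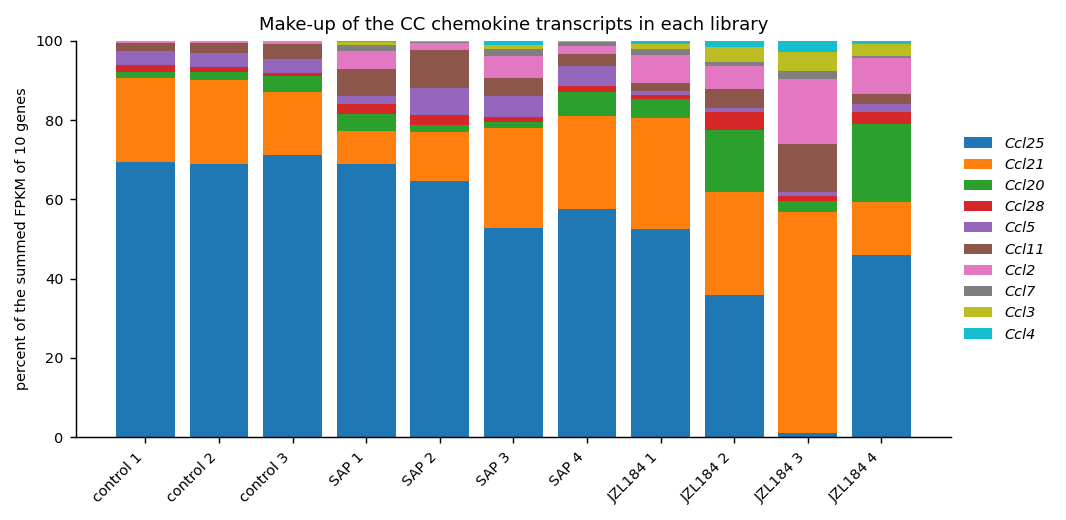
Make-up of the CC chemokine transcripts in each of 11 libraries. Each bar adds the percent of the summed FPKM of the 10 genes; Ccl25 lies at 1.04% in JZL184 library 3, and the Ccl2 band lies at 0.341% to 0.594% in the control libraries and 5.96% to 16.5% in the JZL184 libraries.

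Ccl2 (MCP-1), which draws monocytes through Ccr2, lay at 2.65, 3.15 and 4.84 FPKM in control libraries 1 to 3, at 27.49, 9.11, 46.80 and 14.76 in SAP libraries 1 to 4 and at 50.82, 47.43, 70.94 and 89.65 in JZL184 libraries 1 to 4. All SAP libraries were above all control libraries and all JZL184 libraries above all SAP libraries, the nearest being SAP library 3 and JZL184 library 2. Group means were 3.87 ± 1.37 FPKM (SD, n = 2) in control, 24.54 ± 16.71 (n = 4) in SAP and 64.71 ± 19.60 (n = 4) in JZL184. The log2 fold change of JZL184 against control was 4.04 ± 0.43 (SE, a 16.5-fold difference), and it passed edgeR's quasi-likelihood test with an adjusted p of 0.0112. SAP against control gave 2.52 ± 0.72 (adjusted p = 0.459, edgeR) and JZL184 against SAP gave 1.55 ± 0.48 (adjusted p = 0.138, edgeR), neither past the threshold. With 1 sample left out they ranged from 1.96 to 2.84 and from 1.26 to 2.10.

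Ccl7 (MCP-3), a neighbour of Ccl2 on chromosome 10 that also acts on monocytes, was the member whose SAP and JZL184 levels lay closest. It lay at 0.21, 0.44 and 0.54 FPKM in the control libraries (5, 11 and 14 reads), at 8.49, 1.50, 14.38 and 7.13 in SAP and at 9.53, 7.43, 8.53 and 3.81 in JZL184. Control libraries lay below all others, and the SAP range held the JZL184 range within it, SAP library 2 lying below and SAP library 3 above all JZL184 libraries. JZL184 against control was 4.04 ± 0.54 on the log2 scale (adjusted p = 0.0174, edgeR) and SAP against control 4.05 ± 0.95 (adjusted p = 0.449, edgeR). JZL184 against SAP was 0.02 ± 0.57 (adjusted p = 0.985, edgeR). Within a library, Ccl2 was 2.07 to 6.07 times Ccl7 by FPKM in SAP and 5.33 to 23.5 times in JZL184, the ranges overlapping.

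Ccl3 (MIP-1α), a ligand of Ccr1 made by macrophages and neutrophils, lay at 0.46, 0.26 and 0.46 FPKM in control, 4.54, 1.04, 9.45 and 1.69 in SAP and 10.39, 31.14, 20.36 and 29.72 in JZL184. The 3 groups did not overlap. JZL184 against control was 5.83 ± 0.69 on the log2 scale, a 56.7-fold difference and the largest of the 10 members, with adjusted p = 0.0144 (edgeR). The control value rests on 10, 6 and 11 reads. SAP against control was 3.20 ± 0.998 (adjusted p = 0.459, edgeR) and JZL184 against SAP 2.65 ± 0.69 (adjusted p = 0.105, edgeR). Without SAP library 3 they were 2.38 and 3.47, and without SAP library 2 they were 3.54 and 2.31.

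Ccl4 (MIP-1β), which shares its sources with Ccl3, lay at 1.36, 1.16 and 1.23 FPKM in control, 2.78, 0.87, 7.45 and 1.63 in SAP and 5.51, 11.22, 12.16 and 7.55 in JZL184. JZL184 lay above control in every library, whereas SAP library 2 lay below all control libraries and SAP library 3 inside the JZL184 range. JZL184 against control was 2.83 ± 0.56 on the log2 scale (adjusted p = 0.0454, edgeR). SAP against control was 1.18 ± 0.87 (adjusted p = 0.511, edgeR), 1.51 without SAP library 2 and 0.31 without SAP library 3. Ccl4 had 8 to 103 reads per library. The FPKM of Ccl3 was 0.224 to 0.374 times that of Ccl4 in control libraries, 1.04 to 1.63 times in SAP and 1.67 to 3.94 times in JZL184. These ranges did not overlap, but SAP library 1 (1.63) and JZL184 library 3 (1.67) nearly met. The control ratios rest on 6 to 11 reads of Ccl3 and 10 or 11 of Ccl4. How many other gene pairs set the groups apart was not counted.

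Thus 4 of the 10 members rose in JZL184 against control by edgeR, where 2.16% of all 15916 genes tested were called, and none fell. The same 4 were called by DESeq2 (10.8% of genes) and by limma-voom (18.2%). Groups of JZL184 and control did not overlap, JZL184 higher, in these 4 members and in 18.9% of all genes. They did not overlap with JZL184 lower in Ccl5 and Ccl25, against 19.3% of all genes. At an unadjusted p below 0.05, Ccl5 was added to the 4, against 26.3% of genes. Control held only 2 samples: leaving out either of them removed all 4 calls, with adjusted p of 0.133 to 0.529, without JZL184 library 2 the calls of Ccl4 and Ccl7 were lost, and without JZL184 library 4 that of Ccl4. Without JZL184 library 3, the library with high Car1, the count stayed at 4.

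**Figure D2:**
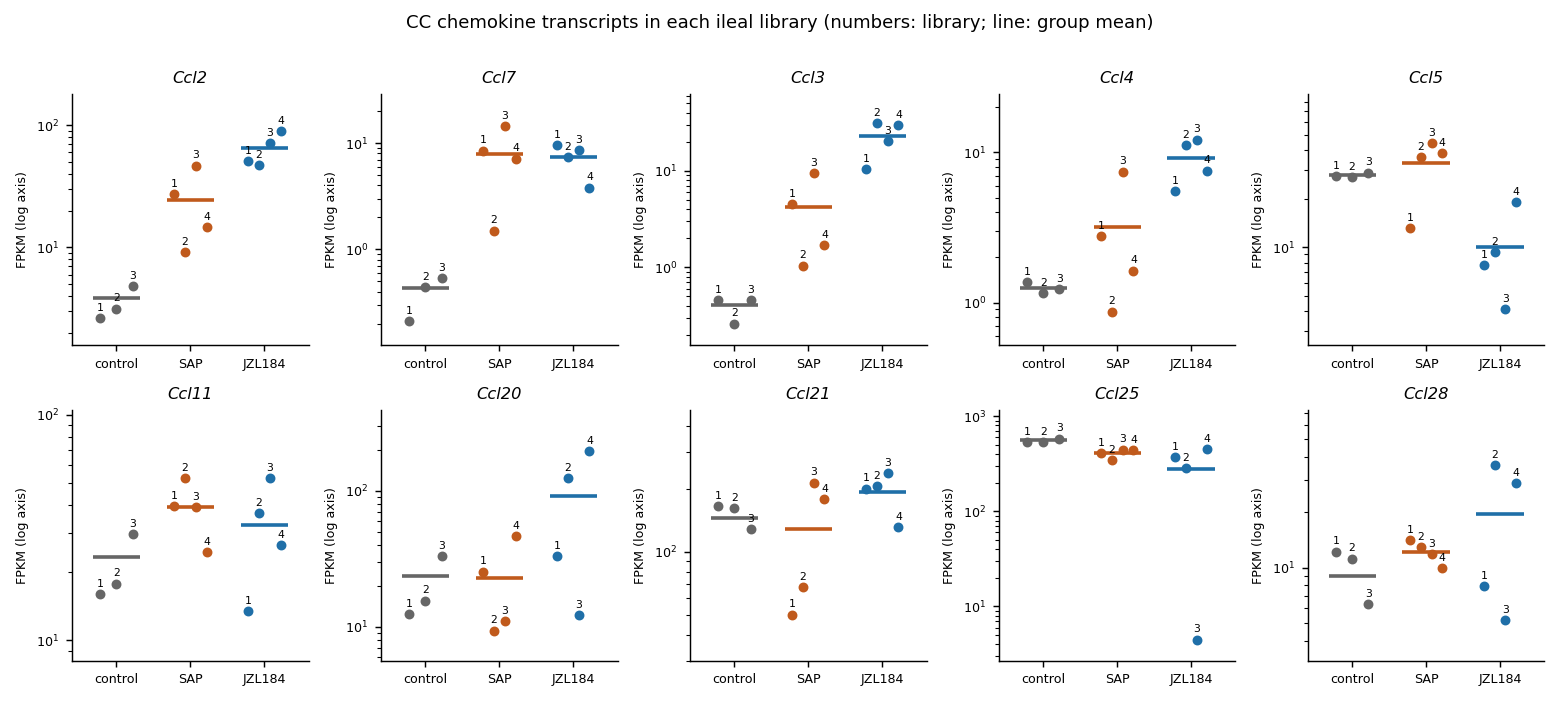
FPKM of the 10 CC chemokines on a log axis, 1 point per library with its number, and a line at the mean of the group (control libraries 1 and 2 as 1 sample). Ccl2, Ccl3 and Ccl7 show no overlap between control and SAP, Ccl2 and Ccl3 none between SAP and JZL184, and Ccl25 of JZL184 library 3 lies at 4.47.

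In SAP against control, edgeR called no member, as it called 0.0% of the 16029 genes tested. At an unadjusted p below 0.05, Ccl2, Ccl3 and Ccl7 stood out, 3 of 10 members against 9.09% of all genes. DESeq2 called the same 3, at adjusted p of 0.0157, 0.0192 and 0.000114, against 1.23% of genes, and limma-voom called none, against 0.131%. SAP lay above control without overlap in those 3 members, against 11.3% of genes, and below it in Ccl25, against 11.9%. The difference of mean FPKM had an exact permutation p of 0.133 in each of these 4 genes, the smallest that 4 against 2 samples allow.

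Within JZL184 against SAP, edgeR also called none of the members and 0.0% of the 15308 genes tested. At an unadjusted p below 0.05 there were 5 members, Ccl2, Ccl3, Ccl4, Ccl20 and, lower in JZL184, Ccl5, against 21.3% of all genes. DESeq2 called Ccl2 and Ccl3 (6.98% of genes called) and limma-voom Ccl2, Ccl3 and Ccl4 (8.57%). JZL184 lay above SAP without overlap in Ccl2 and Ccl3, where 6.23% of genes did, and below it without overlap in no member, where 5.59% of genes did. In Ccl2 and Ccl3 the exact permutation p on FPKM was 0.0286, the smallest that 4 against 4 samples allow, and it was not adjusted over the 30 such tests. When SAP library 2 and JZL184 library 3 were left out together, the log2 fold changes of Ccl2 and Ccl3 were 1.24 and 2.39 (adjusted p = 0.349 and 0.273, edgeR).

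**Figure D3:**
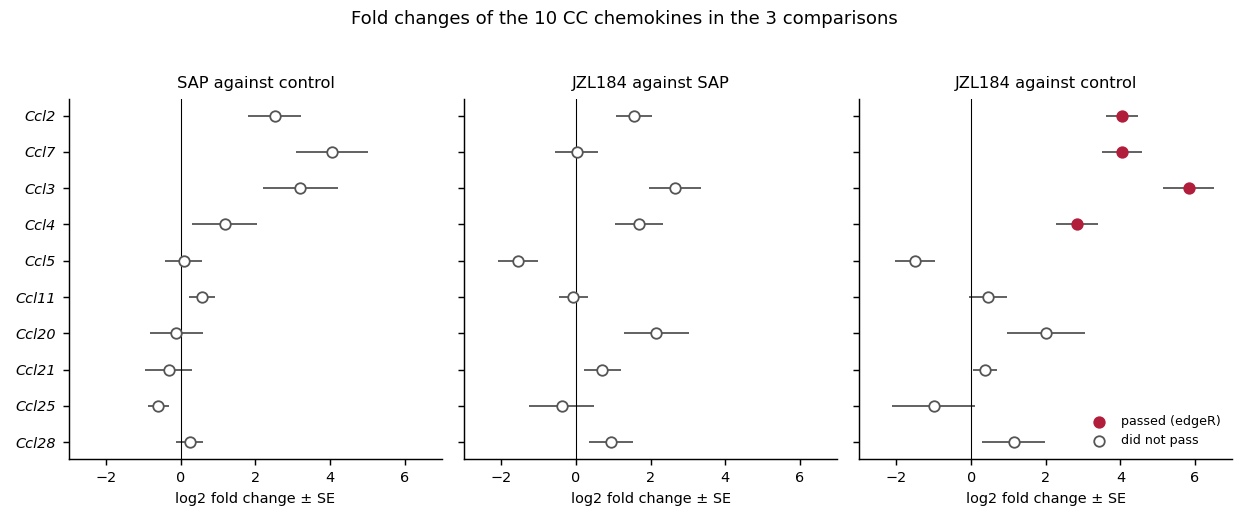
Log2 fold change of the 10 CC chemokines in the 3 comparisons, with bars of 1 SE. Filled points are the differences that edgeR called: Ccl2, Ccl7, Ccl3 and Ccl4 in JZL184 against control.

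Ccl5 (RANTES), made by T cells and NK cells and a ligand of Ccr1 and Ccr3, was the inflammatory member with lower JZL184 values. It lay at 27.62, 27.25 and 29.07 FPKM in control, 13.08, 36.42, 44.51 and 38.51 in SAP and 7.75, 9.31, 4.11 and 19.00 in JZL184. All JZL184 libraries were below all control libraries, while JZL184 library 4 lay above SAP library 1. Neither difference passed, with -1.50 ± 0.54 on the log2 scale against control (adjusted p = 0.131, edgeR) and -1.56 ± 0.54 against SAP (adjusted p = 0.164, edgeR). SAP against control was 0.08 ± 0.50. Of 11 T cell markers, 10 had a log2 fold change below 0 in JZL184 against control. None was called by edgeR, beside 2.16% of all genes, with 7 at an unadjusted p below 0.05, beside 26.3%. DESeq2 called 5 lower and limma-voom 6, where they called 10.8% and 18.2% of all genes. Without overlap 7 lay lower, beside 19.3% of all genes. The summed FPKM of the T cell list was 232.4 to 270.7 in control, 88.56 to 252.5 in SAP and 127.6 to 162.0 in JZL184, none of the list being at 0, and its part in Ccl5 was not tested. Within a library, Ccl3 was 0.00954 to 0.0167 times Ccl5 in control, 0.0286 to 0.347 times in SAP and 1.34 to 4.95 times in JZL184. The 3 groups did not overlap in this ratio, which sets a member higher in JZL184 over one lower there. How many other gene pairs do the same was not counted.

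Ccl11 (eotaxin), which draws eosinophils through Ccr3 and is made by fibroblasts and muscle, lay at 16.07, 17.84 and 29.67 FPKM in control, 39.46, 52.46, 38.95 and 24.70 in SAP and 13.53, 36.67, 52.54 and 26.52 in JZL184. The groups overlapped in all 3 comparisons. SAP against control was 0.57 ± 0.35 on the log2 scale and JZL184 against SAP -0.07 ± 0.39 (adjusted p = 0.470 and 0.922, edgeR). Its receptor Ccr3 stayed at or below 0.23 FPKM in every library.

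Marker lists were read for the cells that these chemokines come from or act on. The summed neutrophil list, led by S100a8 and S100a9, was 3.25 to 4.49 FPKM in control, 11.04 to 88.88 in SAP and 16.94 to 257.0 in JZL184. None of its 8 or 9 markers tested was called by edgeR in any of the 3 comparisons. Of all genes, edgeR called 2.16% in JZL184 against control and 0.0% in the others. DESeq2 called 4 of 9 markers in SAP against control, beside 1.23% of all genes. It called 0 of 9 in JZL184 against SAP (6.98%) and 3 of 9 in JZL184 against control (10.8%). In SAP against control 6 of 9 lay higher without overlap, beside 11.3% of all genes, and 1 lower, beside 11.9%. Of the 10 neutrophil markers, 2 or 3 were at 0 in each control library and at most 1 in each SAP or JZL184 library. In single libraries, S100a8 was lowest at 0.00 FPKM in control library 1 and highest at 148.71 in JZL184 library 2. The monocyte and macrophage list summed to 1395 to 1560 FPKM in control, 814.6 to 2509 in SAP and 513.4 to 1335 in JZL184, with none of its 12 markers at 0, and each JZL184 library lay below each control library. Lyz2, of myeloid or Paneth cells, was the largest part of the sum in every library. It lay at 989.01 to 1203.66 FPKM in control, 643.18 to 2191.05 in SAP and 196.59 to 1120.17 in JZL184, the groups overlapping. In JZL184 against control 7 of the 12 had a log2 fold change below 0, with a median of -0.24. By edgeR 2 of the 12 were called, Cd163 and Mrc1, which rose, beside 2.16% of all genes. Csf1r, the receptor of the macrophage growth factor, and the complement gene C1qa were the 2 of the 12 lower without overlap, beside 19.3% of all genes. They lay at 3.29 to 4.19 and 220.96 to 260.42 FPKM in control and at 1.01 to 2.10 and 55.61 to 137.93 in JZL184. C1qb and C1qc overlapped with control, reaching 93.63 and 66.00 FPKM in JZL184 libraries 2 and 3. Csf1r was called lower by DESeq2 and limma-voom, and C1qa by limma-voom, beside 10.8% and 18.2% of all genes called by these methods. In SAP against control 9 of the 12 were above 0 (median 0.70), and in JZL184 against SAP 9 were below 0 (median -0.65). DESeq2 called Cd163 and Mrc1 higher in SAP against control, beside 1.23% of all genes. It called 3 lower in JZL184 against SAP, beside 6.98%. In both comparisons edgeR called 0 of the 12. Cd163 and Mrc1 were among 3 above control without overlap in SAP, beside 11.3% of all genes, with 1 lower, beside 11.9%. The part of these cells in the Ccl2, Ccl3, Ccl4 and Ccl7 differences was not tested.

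Ccl20, which draws Ccr6+ lymphocytes and dendritic cells to the epithelium, had the widest spread among JZL184 libraries after Ccl25. It lay at 12.42, 15.57 and 32.96 FPKM in control, 25.39, 9.40, 11.06 and 46.22 in SAP and 33.00, 123.75, 12.22 and 194.94 in JZL184. JZL184 libraries 2 and 4 lay above every other library, whereas libraries 1 and 3 lay inside the range of control and SAP. JZL184 against SAP was 2.16 ± 0.86 on the log2 scale (adjusted p = 0.198, edgeR) and 2.53 without JZL184 library 3 (adjusted p = 0.183). JZL184 against control was 2.01 ± 1.04 (adjusted p = 0.258, edgeR), and SAP against control was -0.12 ± 0.71.

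Ccl28 (MEC) showed the same 2 high libraries. It lay at 12.21, 11.17 and 6.29 FPKM in control, 14.08, 12.90, 11.85 and 9.88 in SAP and 7.92, 36.10, 5.17 and 28.75 in JZL184, with libraries 2 and 4 of JZL184 again above all others. JZL184 libraries 1 and 3 lay below every SAP library. JZL184 against SAP was 0.93 ± 0.59 on the log2 scale and JZL184 against control 1.14 ± 0.83 (adjusted p = 0.364 and 0.409, edgeR). Without JZL184 library 3 they were 1.26 and 1.47, and without JZL184 library 2 they were 0.36 and 0.58. The SAP range was narrow and overlapped with control.

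Ccl21, which guides Ccr7+ dendritic cells and naive lymphocytes to lymph vessels and T cell zones, split the SAP group. It lay at 165.30, 162.18 and 128.32 FPKM in control, 49.99, 67.76, 215.06 and 179.04 in SAP and 200.83, 206.01, 239.48 and 131.29 in JZL184. SAP libraries 1 and 2 were the lowest of all and SAP libraries 3 and 4 lay above every control library. Over all 4 SAP libraries the log2 fold change against control was -0.33 ± 0.63 (adjusted p = 0.794, edgeR), and -0.68 to -0.041 with 1 sample left out. JZL184 against SAP was 0.71 ± 0.49 (adjusted p = 0.405, edgeR). The lymphatic endothelium list, led by Lyve1 and Pdpn, went otherwise: its sum was 9.37 to 11.3 FPKM in control, 25.06 to 44.28 in SAP and 17.2 to 51.32 in JZL184, with SAP libraries 1 and 2 above libraries 3 and 4. The summed B cell and T cell lists were lower in SAP libraries 1 and 2, as Ccl21 was. The B cell and plasma cell list summed to 67.48 and 96.96 FPKM there and to 197.8 and 164.6 in SAP libraries 3 and 4, and the T cell list to 88.56 and 155.3 against 215.9 and 252.5. The germinal center and follicular dendritic cell list went the other way, at 17.92 and 16.59 FPKM in SAP libraries 1 and 2 against 14.1 and 13.14. The part of these cells in Ccl21 was not tested. Ccl19, the other ligand of Ccr7, lay at 0.64 and 1.61 FPKM in SAP libraries 1 and 2 and at 9.92 and 7.46 in SAP libraries 3 and 4.

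Ccl25 (TECK) was the most abundant member in every library but 1. It lay at 538.78, 533.19 and 580.99 FPKM in control, 409.99, 348.82, 445.96 and 438.69 in SAP and 374.11, 286.85, 4.47 and 452.72 in JZL184. Every SAP and JZL184 library lay below every control library. The summed FPKM of the epithelium list, with none of its 8 markers at 0, was likewise lower in each of them. It was 19060 to 20450 in control, 7363 to 16010 in SAP and 4832 to 16310 in JZL184. The list's median on the log2 scale was -0.73 for SAP and -0.40 for JZL184, each against control. Of its 8 markers, 7 and 5 were below 0 and 1 and 3 above. In both comparisons edgeR called 0 of the 8, beside 0.0% and 2.16% of all genes. Without overlap 3 lay lower in each, beside 11.9% and 19.3% of all genes, and 1, Cdh1, higher, beside 11.3% and 18.9%. The part of this list in Ccl25 was not tested. For Ccl25, SAP against control was -0.60 ± 0.29 on the log2 scale (adjusted p = 0.459, edgeR). JZL184 against SAP was -0.38 ± 0.87 and 0.03 without JZL184 library 3 (adjusted p = 0.815 and 0.960, edgeR), and JZL184 against control was -1.01 ± 1.11 and -0.59 without it (adjusted p = 0.587 and 0.261). JZL184 library 3 held 183 reads of Ccl25 where the other libraries held 11611 to 25097. In the same library Fabp2, of small-intestinal enterocytes, was at 265.60 FPKM against 696.86 to 9126.08 elsewhere, the ileum list summed to 1116 FPKM and the epithelium list to 4832. In JZL184 library 1, with Ccl25 at 374.11 FPKM, these sums were 1021 and 16310.

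**Figure D4:**
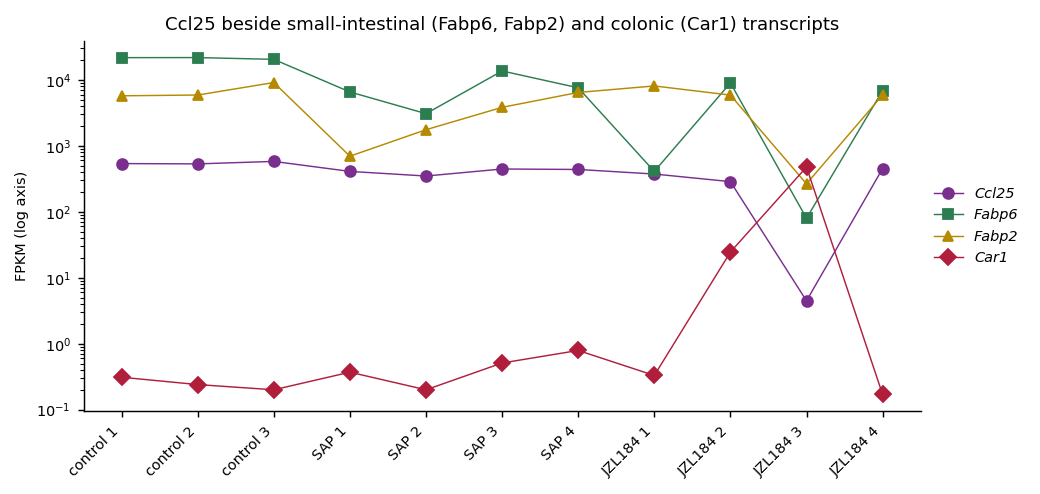
FPKM of Ccl25, of Fabp6 and Fabp2 (enterocytes of the small intestine) and of Car1 (colon) in each library on a log axis. In JZL184 library 3, Ccl25 lies at 4.47, Fabp6 at 79.92 and Car1 at 477.54.

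The 9 CC receptors described summed to 5.405 to 7.76 FPKM in control, 6.16 to 12.1 in SAP and 4.24 to 10.39 in JZL184, against 774.6 to 814.4, 540.3 to 845.5 and 430.0 to 984.0 for the 10 ligands. Single pairs went otherwise, since Ccr2, at 0.52 to 1.01 FPKM in control, lay above its ligand Ccl7 in each control library. Of the 9 receptors, 7 passed the filter on low counts in SAP against control, 5 in JZL184 against SAP and 6 in JZL184 against control, and by edgeR 1 fell, Ccr10 in JZL184 against control, beside 2.16% of all genes called there. Median log2 fold changes of the receptors tested were 0.14, -0.06 and -0.002 in these comparisons, beside 0.06, -0.05 and 0.08 over all genes tested. For the 10 ligands they were 0.40, 0.82 and 1.57. Ccr10, the receptor of Ccl28 on IgA plasma cells, lay at 0.55, 0.48 and 0.30 FPKM in control, 0.02, 0.05, 0.27 and 0.12 in SAP and 0.04 to 0.05 in JZL184, with a log2 fold change of -3.31 ± 0.58 in JZL184 against control (adjusted p = 0.0351, edgeR). This rests on 28, 26 and 17 reads in control and 3, 2, 2 and 2 in JZL184. The call was lost without either control sample and without JZL184 library 2 or 4. Jchain, of plasma cells, fell in the same comparison and was at 90.77 to 117.73 FPKM in control and 16.69 to 32.49 in JZL184, and its part in Ccr10 was not tested.

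Ccr9, the receptor of Ccl25, lay at 1.39, 1.34 and 2.30 FPKM in control, 1.52, 3.64, 2.13 and 1.75 in SAP and 0.70, 0.47, 0.08 and 0.70 in JZL184. All JZL184 libraries were below all libraries of both other groups. The difference from SAP was -2.02 ± 0.59 on the log2 scale (adjusted p = 0.126 by edgeR and 0.0128 by DESeq2). It was -2.26 to -1.66 with 1 library left out. Of the receptors tested, 1 of 5 lay below SAP without overlap and 2 of 6 below control, beside 5.59% and 19.3% of all genes. Above without overlap lay 0 and 1, beside 6.23% and 18.9%. DESeq2 called 2 of 9 receptors in JZL184 against SAP and 3 of 7 against control, beside 6.98% and 10.8% of all genes. Ccr1, a receptor of Ccl3, Ccl5 and Ccl7, lay at 0.28, 0.26 and 0.44 FPKM in control and at 2.14, 2.11, 1.78 and 1.26 in SAP without overlap (2.20 ± 0.41, adjusted p = 0.331 by edgeR and 0.000336 by DESeq2). JZL184 libraries 1 and 2 lay at 2.18 and 2.77 and libraries 3 and 4 at 0.61 and 0.47. In SAP against control 1 of 7 receptors lay higher without overlap, beside 11.3% of all genes, and 2 lower, beside 11.9%. DESeq2 called 1 of 8 receptors there, beside 1.23% of all genes.

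Ccr2, the receptor of Ccl2 on monocytes, had its highest values in SAP. It lay at 0.52 to 1.01 FPKM in control, 0.86 to 2.41 in SAP and 0.32 to 1.12 in JZL184, whereas its ligand Ccl2 was highest in JZL184. JZL184 against SAP was -1.05 ± 0.47 for Ccr2 on the log2 scale (adjusted p = 0.234, edgeR). Ccr6 at 0.82 to 3.16 FPKM and Ccr7 at 0.46 to 3.36 overlapped in JZL184 against either group, and Ccr4 and Ccr8 stayed at or below 0.18 and 0.10.

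**Figure D5:**
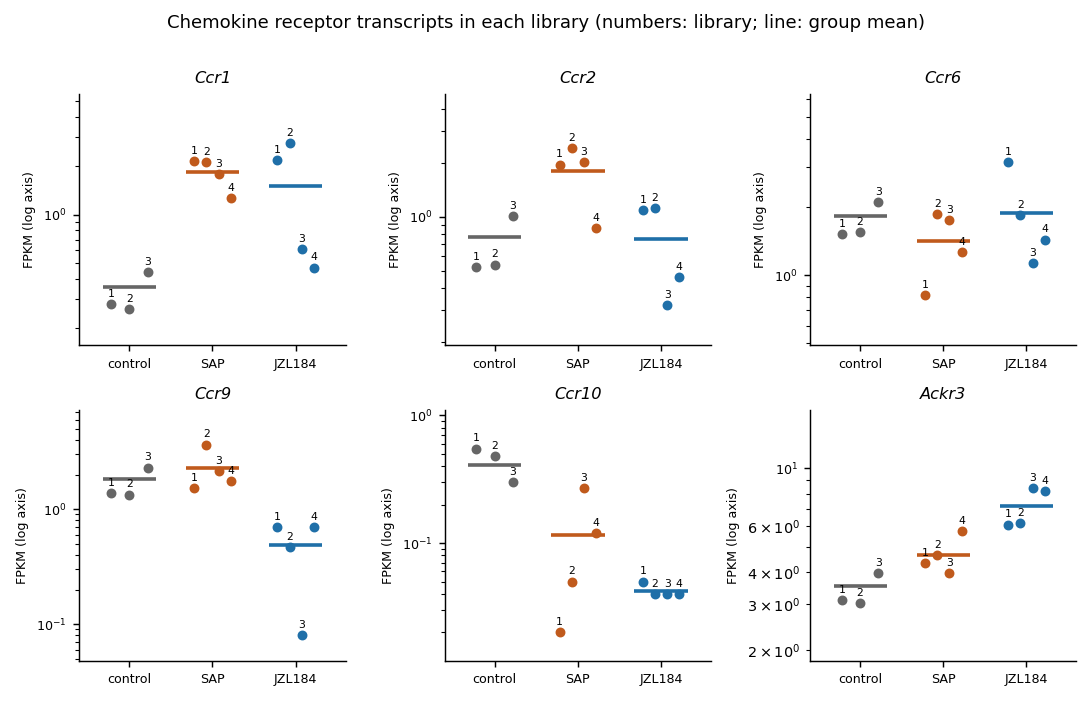
FPKM of 5 CC receptors and the atypical receptor Ackr3 on a log axis, 1 point per library with its number and a line at the group mean. Ccr9 of the JZL184 libraries (0.08 to 0.70) lies below all others, and Ccr1 of the SAP libraries (1.26 to 2.14) above all control libraries.

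Among 5 atypical receptors, all tested in all comparisons, 1 rose in JZL184 against control by edgeR, Ackr2, beside 2.16% of all genes. Ackr2, which removes inflammatory CC chemokines, lay at 0.03, 0.01 and 0.04 FPKM in control, 0.31, 0.26, 0.14 and 0.16 in SAP and 0.20, 0.40, 0.96 and 0.46 in JZL184, with 4.13 ± 0.75 on the log2 scale against control (adjusted p = 0.0372, edgeR). Its control values rest on 8, 3 and 10 reads. The call was lost without either control sample and without JZL184 library 2 or 4. Ackr3, a decoy of CXC ligands, lay at 3.04 to 3.97 FPKM in control and at 6.08 to 8.37 in JZL184 (0.999 ± 0.302, adjusted p = 0.0961, edgeR). Ackr4, which takes up Ccl19, Ccl21 and Ccl25, lay at 1.80 to 7.27 FPKM over all libraries and the groups overlapped.

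Of 10 other CC chemokines, 7 or 8 were tested and none was called by edgeR in any comparison, with 2, 4 and 5 at an unadjusted p below 0.05 in SAP against control, JZL184 against SAP and JZL184 against control, where 9.09%, 21.3% and 26.3% of all genes were. DESeq2 called 1, 2 and 3 of 8 tested, beside 1.23%, 6.98% and 10.8% of all genes. Ccl6, a chemokine of myeloid cells found in rodents, lay at 37.67 to 59.99 FPKM in control, 41.71 to 88.22 in SAP and 9.28 to 24.40 in JZL184, all JZL184 libraries below all others (-1.55 ± 0.41 against SAP, adjusted p = 0.105, edgeR). Ccl22, a dendritic cell ligand of Ccr4, lay at 2.38 to 4.63 FPKM in control and 0.32 to 0.96 in SAP (-2.66 ± 0.56, adjusted p = 0.403 by edgeR and 0.00282 by DESeq2). Ccl12, which resembles Ccl2, lay at 0.06 to 0.60 FPKM in control and 0.86 to 2.38 in JZL184, and at 4.11 and 7.39 in SAP libraries 1 and 3 against 0.17 and 0.67 in libraries 2 and 4.

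Of 9 cytokines known to induce CC chemokines, 4, 4 and 6 were tested in the comparisons in the same order, and 2 of the 6 rose in JZL184 against control, Il1a and Il22, beside 2.16% of all genes. Il22, which acts on epithelium, lay at 0.06 to 0.23 FPKM in control, 0.17 to 1.29 in SAP and 18.54, 8.70, 1.22 and 13.56 in JZL184 (6.05 ± 1.22 against control, adjusted p = 0.0476, edgeR). Without JZL184 library 3 it was 6.44 (adjusted p = 0.00212, edgeR). Il1a was 3.53 ± 0.57 higher on the log2 scale (adjusted p = 0.0266, edgeR). Both calls were lost without either control sample and without JZL184 library 2 or 4. Tnf lay at 0.52 to 0.92 FPKM in control, 0.43 to 1.38 in SAP and 0.91, 5.63, 5.88 and 8.52 in JZL184. Its difference from SAP did not pass by edgeR (2.77 ± 0.63, adjusted p = 0.0865 by edgeR and 0.000476 by DESeq2). DESeq2 called 0 of 5, 3 of 7 and 4 of 7 cytokines in the same order, beside 1.23%, 6.98% and 10.8% of all genes. The counts of limma-voom were 0 of 4, 3 of 4 and 5 of 6, beside 0.131%, 8.57% and 18.2%.

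The genes most like each member over the 10 samples were read by Pearson r of log2(CPM + 1) among 13649 genes. Points were whole libraries that share depth and make-up, so r is a description. The nearest genes of Ccl2 were Cxcl2, a neutrophil chemokine (r = 0.961), Pus3 (r = 0.959) and Ccl3 (r = 0.953). Those of Ccl3 were Sod2, a mitochondrial enzyme induced by inflammatory cytokines (r = 0.981), Orm1, an acute phase protein (r = 0.973), and again Cxcl2 (r = 0.958). Ccl4 was closest to Tnfrsf12a (r = 0.957) and had Ccl3 next (r = 0.956). Ccl7 was closest to the complement gene Cfb (r = 0.947, Spearman's rho 0.72). The closest gene to Ccl5 was Cxcr6, a receptor of T and NK cells (r = 0.969). The epithelial members had others, Baiap2l2 for Ccl25 (r = 0.993, Spearman's rho 0.87) and Bcar3 for Ccl20 (r = 0.957). The r of Ccl25 rests largely on JZL184 library 3, where Ccl25 lay at 4.47 FPKM against 286.85 to 580.99 elsewhere. For Ccl28 the closest gene was Apobec1, the mRNA editing enzyme of enterocytes (r = 0.945). For Ccl11 it was Tmem241 (r = 0.921) and for Ccl21 Iqcc (r = 0.966).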

How the data were processed

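Stranded mRNA libraries were made from the ileal RNA of 3 control rats, 4 rats with SAP and 4 given JZL184 as well. The authors discarded reads with N, trimmed with FASTX-Toolkit, removed short reads, aligned to mRatBN7.2 with HISAT2 and deposited read counts of uniquely aligned reads per gene, without normalization. The deposited FPKM, which normalize for gene length and library size, were also calculated by the authors, to 2 decimals. The submitters' processing notes name bcl2fastq, HISAT2 and DESeq2. Not given in the sources used here were the counting tool, its strand setting and the annotation, so overlapping or near-identical genes could share reads.

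Members and gene lists were chosen with earlier results of these data known. Members were matched by symbol. The counts of all genes were fitted in pairs of groups with edgeR 4.0.16 (R 4.3.3): filter on low counts (minimum count 10), TMM, quasi-likelihood test, Benjamini-Hochberg over all genes, with a call where the adjusted p was under 0.05 and the fold change over 2 or under 0.5. The SE is the fold change divided by the root of F. Counts of control libraries 1 and 2 were summed and their FPKM averaged. With these summed, each p measures the spread between the samples, of which control held 2. Where control libraries 1 and 2 were kept separate, nearly alike libraries counted as 2 samples, so those p do not measure the spread between rats. Groups did not overlap where all TMM CPM of one were above all of the other. Mean FPKM were compared by two-sided exact permutation. Alternatives were DESeq2 1.42.0, limma-voom with quality weights (limma 3.58.1), DESeq2 size factors, no filter, all groups in 1 fit, no fold change threshold, length offsets (span 0.3), separate control libraries, the replicate number as a block, parts of the SAP group and leaving out each sample. The fits were tested on simulated data. Named genes were all members, the companion lists after their counts and the 2 highest markers of each list. Epcam, Cdh1, Cd163, Mrc1, Csf1r, C1qa, C1qb and C1qc were added after their values were seen. Also named were the 3 genes most like each member among genes with a mean CPM of at least 1. Upstream sequence came from RefSeq (GRCr8), and motifs were chosen with the data known. Python 3.11.15 with scipy 1.17.1 was used for tables. A gene of the companion lists is not reported here. Depth was 26341299 to 33847135 reads per library.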

Additional observations from a re-analysis of the deposited data

Results flagged for a closer look

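Among 20 sets of 4 libraries (10 members in the SAP and in the JZL184 group), 2 held a library far from the others on the log2(FPKM + 1) scale by Dixon's test, where chance flags about 1 in 20. Ccl5 in SAP library 1 was at 13.08 FPKM, with the other SAP libraries at 36.42 to 44.51. Ccl25 in JZL184 library 3 was at 4.47 FPKM, with the other JZL184 libraries at 286.85 to 452.72. Car1 was at 477.54 FPKM in the latter library, and the part of this in Ccl25 was not tested.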

How the results depend on the processing

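The 4 members called in JZL184 against control stayed at 3 to 5 under every alternative that kept both control samples and JZL184 library 2. Leaving out 1 sample gave 0 to 4, and 0 to 1867 genes in all, highest without JZL184 library 1, beside 343. Genes called there were 1899 by DESeq2, 2898 by limma-voom, 929 without the filter and 2800 with separate control libraries. In SAP against control, where edgeR called 0 members and 0 genes, DESeq2 called 3 members and 208 genes, limma-voom 21 genes, edgeR without the filter 14, with all 3 groups in 1 fit 4, and with separate control libraries 33. SAP libraries 1 and 2 alone gave 4 members and 5859 genes, SAP libraries 3 and 4 alone 2 members and 74 genes, and leaving out 1 sample 0 to 3 genes. In JZL184 against SAP, also with 0 members and 0 genes, DESeq2 called 2 members and 1283 genes, limma-voom 3 members and 1312 genes, no filter 27 genes, 1 fit 207, length offsets 31, SAP libraries 1 and 2 alone 4 members and 2912 genes, SAP libraries 3 and 4 alone 0 members and 0 genes, and leaving out 1 sample 0 to 655 genes. Chosen after seeing the data, DESeq2 with separate control libraries called 3 members and 1434 genes in SAP against control and 3498 genes in JZL184 against control, and leaving out SAP library 2 with JZL184 library 3 called 0 members. These parts of the SAP group were chosen with the libraries' values known, so their counts are descriptions and no test. The cause of these changes was not tested.

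Signs turned only in members with log2 fold changes near 0. For SAP against control, Ccl5 was -0.14 by limma-voom, -0.49 with SAP libraries 1 and 2 alone and -0.11 to 0.36 with 1 sample left out. Ccl20 was 0.28 with length offsets and with SAP libraries 3 and 4 alone, 0.07 with separate control libraries, 0.06 in DESeq2 with these and -0.82 to 0.52 with 1 sample left out. Ccl21 was 0.36 with SAP libraries 3 and 4 alone, and Ccl28 -0.19 to 0.84 with 1 sample left out. In JZL184 against SAP, Ccl7 was -0.0038 without the filter, -0.20 with length offsets, -0.50 with SAP libraries 3 and 4 alone, -0.39 without SAP library 2 and JZL184 library 3, and -0.34 to 0.49 with 1 sample left out. Ccl11 was 0.09 with SAP libraries 3 and 4 alone and -0.34 to 0.21 with 1 sample left out, and Ccl25 -0.72 to 0.03.

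Same-numbered SAP and JZL184 libraries deviated from their group means with correlations of 0.12, -0.45, -0.01 and -0.10. These showed no sign of a pairing by number, but 1 value per number cannot exclude it. With the number as a replicate block and separate control libraries, SAP against control gave 1 gene and 0 members, with Ccl5 at -0.22, and JZL184 against control 1488 genes and 5 members, Ccl5 added (-2.11). The replicate block gave 0 genes and 0 members in JZL184 against SAP. Few reads limited Ccl3, Ccl4, Ccl7, Ackr2, Il1a and Il22 in control and Ccr10 in JZL184, and 2 control samples limited every comparison with control.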
